A study of Mus musculus with 8 samples.

Results

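Interferon-stimulated genes are genes whose transcription rises when a cell senses interferon, and 38 of them, given as a list of names, were followed in cultured primary mouse brain microvascular endothelial cells. All 38 were found among the 54532 Ensembl genes of the deposited tables by matching identifiers to mouse symbols. The cells came from 2 genotypes, with 4 libraries labelled Wild-type and 4 labelled Cavb3 KO, and the replicates of each are described as independent biological ones. Cavβ3, the product of Cacnb3, is an accessory β subunit of calcium channels that open on depolarisation, and the question put by the study is what it does in endothelial function. Cells of both labels grew in DMEM supplemented with serum, a fibroblast growth factor, heparin and antibiotics, and the labels name no interferon, virus or other stimulus. The sources used here give no strain, sex, age, passage or kind of knockout allele, so p-values measure the spread between these 8 cultures. Values are FPKM (fragments per kilobase of transcript, scaled to the mapped total of the library), a scale that corrects for gene length.

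Type I interferons bind the receptor made of Ifnar1 and Ifnar2, whose kinases Jak1 and Tyk2 phosphorylate Stat2. Stat2 and Irf9 belong to the complex ISGF3, which binds the interferon-stimulated response element (ISRE) of promoters, while interferon-γ acts on the gamma-activated site (GAS). The products restrict viruses at several steps: they sense viral RNA, block its translation or degrade it, and stop viruses from entering or leaving the cell. Cells keep a low, tonic level of many of these transcripts without infection, and type I interferon signalling in brain endothelium is known for its bearing on the tightness of the blood-brain barrier.

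The libraries held 23491645 to 33813070 implied reads, and under both labels replicates 1 and 2 formed one set and replicates 3 and 4 another. Ddx3y, carried on the Y chromosome, ranged from 6.98 to 9.48 FPKM in the first set and was listed at 0 in the second, and Xist ranged from 12.4 to 15.1 against 28.3 to 43.3 FPKM. The genotype labels were therefore compared within each replicate set as well as over all 8 libraries. The targeted gene did not separate the labels over all 8 libraries: Cacnb3 was at 3.38, 3.56, 1.12 and 0.980 FPKM across wild type replicates 1 to 4 and at 1.70, 2.09, 2.47 and 1.77 FPKM in the libraries labelled Cavb3 KO. Without overlap it was lower under that label in replicates 1 and 2 (log2 difference -0.63, limma adjusted p = 0.168) and higher in replicates 3 and 4 (0.60, limma adjusted p = 0.174), so every direction below rests on the label alone, and in replicates 3 and 4 the targeted gene went against it. All 10 endothelial markers, among them Cdh5, Pecam1 and Cldn5, were expressed in every library. None of the 11 microglial and macrophage markers reached 1 FPKM anywhere, the highest single value being 0.612 FPKM.

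Without added interferon the 38 genes covered a wide range of levels. In each library 25 to 30 of them were at or above 1 FPKM, and the median member stood at 2.70 to 3.83 FPKM. Of the 38, 29 reached 1 FPKM in at least 4 libraries and were tested, 25 of these in all 8. Ifit3, Gbp3, Ifit1 and Rsad2 were tested although they fell short of 1 FPKM in some libraries, Ifit1 and Rsad2 reaching it in 5 of the 8. For Rsad2 these were all 4 wild type libraries and 1 Cavb3 KO library. For Ifit1 they were replicates 1 and 2 of both labels and wild type replicate 4. Both thus passed the filter mainly through the libraries where they were high, and the directions and calls counted below include them. The other 9 members, Gbp7, Xaf1, Oasl2, Ifi44, Dhx58, Mx2, Zbp1, Mx1 and Oas2, were below this threshold, with Gbp7 (0.531 to 1.71 FPKM) nearest to it. Mx2, which encodes a dynamin-like GTPase, is annotated as a polymorphic pseudogene and was at 0.164 to 0.360 FPKM. No read of Mx1, the related mouse GTPase active against influenza viruses, was recovered in 5 of the 8 libraries, which allows up to 0.0234 to 0.0334 FPKM (3 reads; counting error only). Oas2 was likewise without a read in Cavb3 KO replicates 1 to 3, which allows up to 0.0199 to 0.0284 FPKM.

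Proteins that act at membranes led the list. Ifitm3, which blocks fusion of enveloped viruses in endosomes, was at 1639, 1588, 1524 and 1335 FPKM across wild type replicates 1 to 4 and at 1474, 1367, 1427 and 1610 FPKM in the libraries labelled Cavb3 KO. It alone made up 76.9% to 84.7% of the summed FPKM of the 38 genes and ranked between 4 and 8 among all genes of each library. Its coefficient of variation over the 8 libraries, 7.60%, was the lowest of the 29 tested members, followed by Stat2 at 8.10%, Dtx3l at 8.58% and Adar at 9.01%. Ifitm2, its paralog nearby on chromosome 7 (140954837 to 140955987, minus strand, GENCODE M21), was second by mean level and the most variable of the 29, at 43.5%, with Ifit3 (39.6%) and Ifit1 (37.5%) behind it. The exons of Ifitm2 share 268 bases (40.9%) with those of Gm45717 on the same strand, a gene listed at 0 in every library. How the counting treated reads there is not known. Reads of related genes (Ifitm2 and Ifitm3, Ifit3 and Ifit3b, Oas1a and Oas1g, the Gbp genes) may be split between copies by the counting, which would add uncertainty to their levels. How alike their sequences are was not computed.

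**Figure D1:**
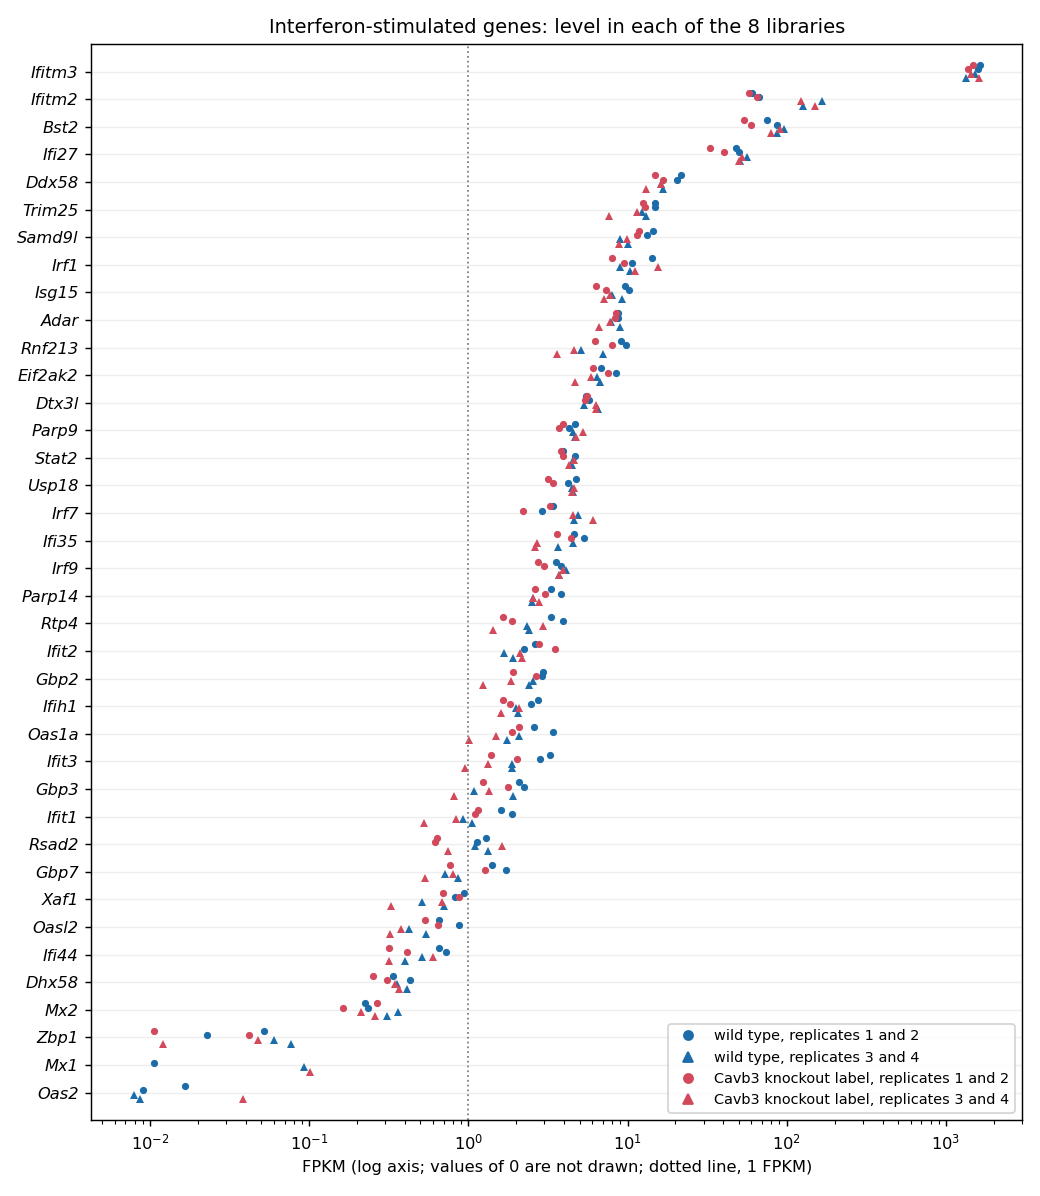
FPKM of the 38 interferon-stimulated genes on a log axis, 1 point per library, genes ordered by mean level, with circles for replicates 1 and 2, triangles for replicates 3 and 4, blue for wild type and red for the Cavb3 KO label. Ifitm3 stands near the top of the scale in every library, and 9 genes lie mostly left of the dotted line at 1 FPKM.

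Promoter windows show which members carry the response element in its plainest form. RefSeq promoter sequences (GRCm38.p6, 250 bases before to 50 after the start) were on hand for 28 of the 38 members. An ISRE-like match, GAAANNGAAA on either strand, was present in 15 of these 28 (53.6%) and in 1079 of 27025 genes with a promoter in the same table (3.99%), or 3.45% of the tested genes. A GAS-like match, TTCNNNGAA, which reads the same on both strands, was present in 9 of 28 members (32.1%) and in 9.55% of all genes. A few ISRE-like and GAS-like matches overlap each other. The stretches below, 5′ to 3′ on the strand of the gene with each ISRE-like match in capitals (TTTCNNTTTC where it lies on the other strand), belong to the 3 members with the highest levels that carry a match and to the 5 with a match among those that were lower under the Cavb3 KO label without overlap in both replicate sets.
Ifitm3, chr7:141010715-141010757, minus strand: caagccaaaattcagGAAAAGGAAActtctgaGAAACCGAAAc
Ifitm2, chr7:140955983-140956022, minus strand: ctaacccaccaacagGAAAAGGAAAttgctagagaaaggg
Bst2, chr8:71537572-71537617, minus strand: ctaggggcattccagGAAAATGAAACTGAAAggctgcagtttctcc
Isg15, chr4:156200860-156200911, minus strand: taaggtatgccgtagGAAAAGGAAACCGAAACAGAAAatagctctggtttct
Ifit3, chr19:34583358-34583431, plus strand: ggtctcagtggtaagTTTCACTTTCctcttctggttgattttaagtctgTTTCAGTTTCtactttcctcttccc
Ifit1, chr19:34640770-34640828, plus strand: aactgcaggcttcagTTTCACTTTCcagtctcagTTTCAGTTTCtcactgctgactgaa
Oas1a, chr5:120907515-120907560, minus strand: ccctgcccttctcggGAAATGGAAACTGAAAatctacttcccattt
Gbp2, chr3:142620589-142620628, plus strand: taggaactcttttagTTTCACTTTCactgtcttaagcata
Isg15 held 3 overlapping matches in a row, Bst2 and Oas1a a pair of overlapping ones, and Ifit1 and Ifit3 2 separate ones each. The same 10 letters, GAAAAGGAAA, stand just after the start of Ifitm3 and before the starts of Ifitm2 and Isg15. No GAAANNGAAA match was found in the 1 window of Irf7 or in the 2 windows each of Irf1, Irf9 and Ifit2. This says only that this spelling is absent from the 300 bases of each window.

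**Figure D2:**
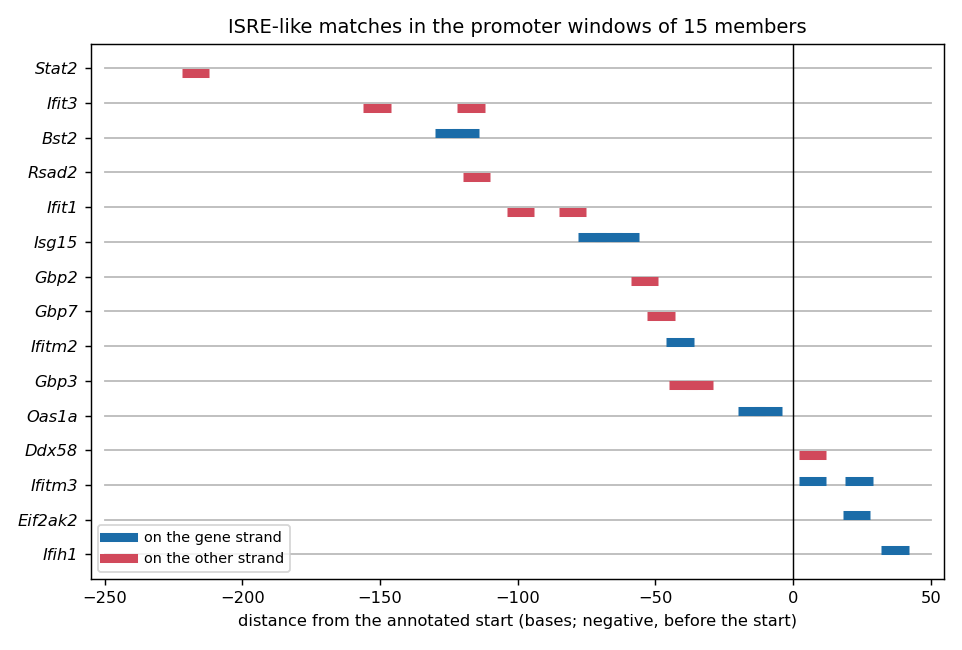
Positions of the ISRE-like matches in the promoter windows of the 15 members that hold one, in bases from the annotated start (black line), blue on the strand of the gene and red on the other strand. Matches lie before the start in 11 of the windows, and just after it in Ddx58, Ifitm3, Eif2ak2 and Ifih1.

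By genotype label no member passed the test, while the direction was nearly uniform in 1 replicate set. In limma on log2(FPKM + 1), with Benjamini-Hochberg adjustment over the 11864 genes tested, 0 of the 29 tested members passed at an adjusted p of 0.05 either over all 8 libraries or in the 2 replicate sets taken one by one. Of all genes tested, 0% passed over all 8 libraries, 0.0506% (6 genes) within replicates 1 and 2 and 0.0506% (6 genes) within replicates 3 and 4. At an unadjusted p under 0.05 the members numbered 5 over all 8 libraries, beside 5.45% of all genes, 13 within replicates 1 and 2, beside 11.7%, and 6 within replicates 3 and 4, beside 14.3%. Each of these members was lower under the Cavb3 KO label. Over all 8 libraries the counts at an unadjusted p under 0.05 were 14 members and 2269 genes with the replicate set as a term, and 12 members and 1915 genes with the replicate block, against 5 members and 647 genes without either. Within the sets the replicate block lowered the counts, to 9 members and 1130 genes in replicates 1 and 2. In replicates 3 and 4 it gave 2 members and 1462 genes. Each set fitted alone gave 16 members and 1660 genes, and 3 members and 1305 genes. The count over all 8 libraries uses the same libraries as the within-set counts. The 2 sets share no library, but in the main fit both within-set tests take their spread from all 8 libraries. The limma-voom test on recovered reads also called 0 members in these 3 comparisons.

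Within replicates 1 and 2, 37 of the 38 members had a lower mean under the Cavb3 KO label, Ifit2 being the exception. Of the 29 tested ones 28 were lower, beside 56.1% of all genes tested. These 29 had a median log2 difference of -0.28, beside -0.02 for all genes tested. In 28 of the 38, 23 of them tested, both Cavb3 KO libraries lay below both wild type libraries, as they did for 28.9% of all genes tested. Some untested members were counted on a few reads. Oas2 separated on 2 and 1 wild type reads against 0 and 0, and the mean of Mx1 was lower through 1 read, in wild type replicate 2. Under quantile normalization, median centring or limma-voom 25 to 28 of the 29 tested members were negative within replicates 1 and 2, and 18 to 20 within replicates 3 and 4, with Adar, Dtx3l, Ifitm2, Ifitm3, Irf9, Samd9l and Stat2 turning sign near 0 under at least one of them. Within replicates 3 and 4, 28 of the 38 and 21 of the 29 tested were lower on average, beside 53.9% of all genes tested. The median of the tested ones in that set was -0.10, beside -0.02. There 13 of the 38, 10 of them tested, lay lower without overlap, beside 25.8% of all genes tested. Of the untested ones, Zbp1 did so on 6 and 7 wild type reads against 4 and 1. Trim25, Isg15, Adar, Rnf213, Ifi35, Gbp2, Oas1a, Ifit3, Ifit1 and Oasl2 were lower without overlap in each set, which makes 10 of the 38 and 9 of the 29 tested, beside 12.2% of all genes tested. Over all 8 libraries together only Isg15 was lower without overlap, 1 of 38, beside 2.5% of all genes tested.

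Single libraries weighed on the differences within replicates 3 and 4. Cavb3 KO replicate 4 held the lowest of the 8 values for 14 of the 29 tested members, and for 33.1% of all genes tested. Without it the median difference within replicates 3 and 4 was -0.01, and without Cavb3 KO replicate 3 it was -0.21. Within replicates 1 and 2 the median stayed between -0.36 and -0.24 whichever library was left out. Wild type replicates 1 and 2 held the highest value for 7 and 11 of the 29 members, and for 17.7% and 18.4% of all genes tested.

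**Figure D3:**
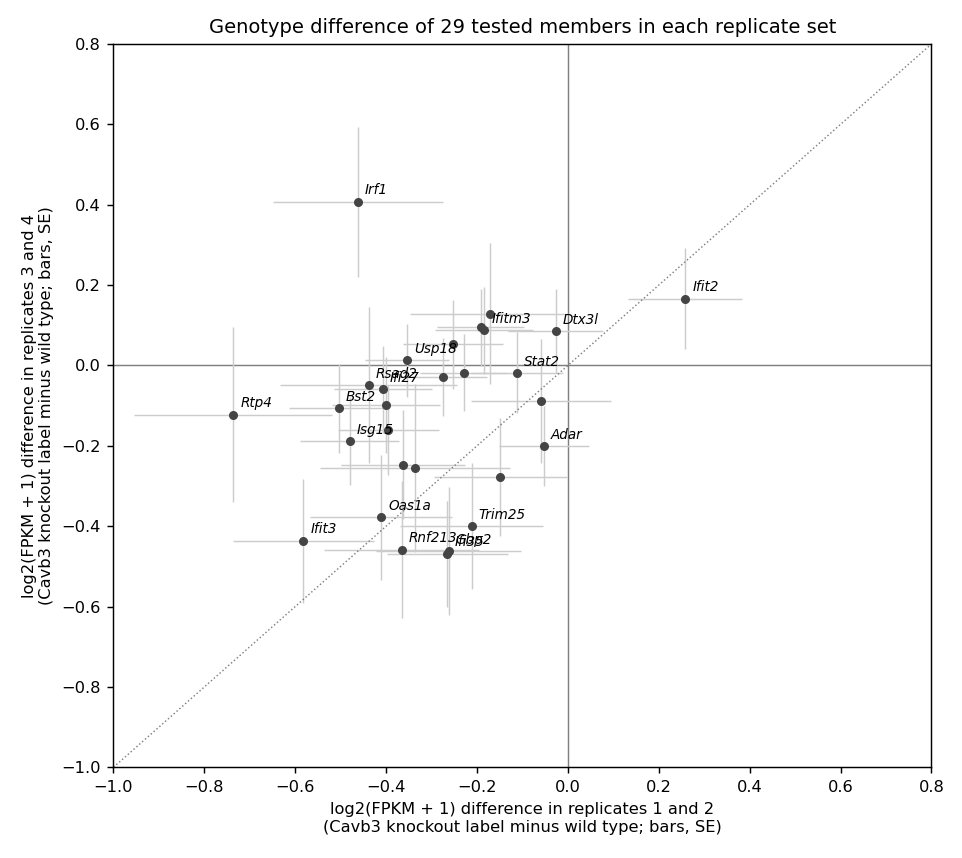
Log2(FPKM + 1) difference by genotype label (Cavb3 KO minus wild type) of the 29 tested members within replicates 1 and 2 (horizontal) and within replicates 3 and 4 (vertical), with standard errors from limma as bars. All but Ifit2 lie left of 0, and Irf1 lies farthest out at the upper left, at -0.46 and 0.41. Irf7, Parp9, Parp14, Ifitm3, Dtx3l and Usp18 also lie at the upper left, nearer to 0.

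**Figure D4:**
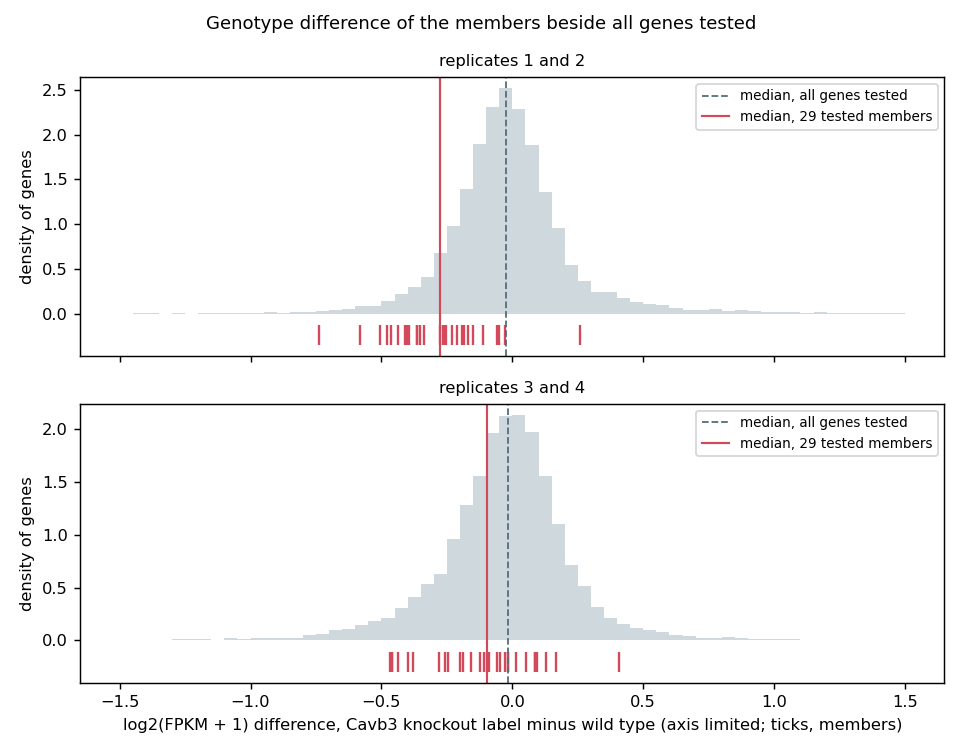
Distribution of the log2(FPKM + 1) difference by genotype label over the 11864 genes tested (grey; the few beyond the drawn axis are left out), with the 29 tested members as red ticks, for replicates 1 and 2 (top) and 3 and 4 (bottom). The red line marks the members' median (-0.28 and -0.10) and the dashed line that of all genes (-0.02 in each set).

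The summed levels of cell type markers differed between the labels too. All 10 endothelial markers were lower under the Cavb3 KO label, with medians of -0.35 within replicates 1 and 2 and -0.22 within replicates 3 and 4, and 0 of them passed. Their summed FPKM was 2355 to 2374 in wild type and 1830 to 1834 under the Cavb3 KO label in replicates 1 and 2, and 1734 to 1839 against 1543 to 1577 in replicates 3 and 4. The sum of the 5 epithelial and mesothelial markers, most of it Krt19, was 26.3 to 29.4 against 73.8 to 88.7 FPKM in replicates 1 and 2 and 39.1 to 41.0 against 65.0 to 93.8 FPKM in replicates 3 and 4. That of the 7 pericyte and smooth muscle markers was 19.8 to 24.7 against 8.77 to 16.2 FPKM in replicates 1 and 2 and 3.42 to 4.43 against 4.15 to 6.97 FPKM in replicates 3 and 4. The defining genes of immune cells were near 0: the 11 microglial and macrophage markers together reached 0.944 to 2.34 FPKM, and of the 6 lymphoid and plasmacytoid markers only Cd79a exceeded 1 FPKM. The part of these shifts in the members' differences was not tested, and in bulk RNA fewer cells of a type cannot be told apart from less RNA per cell.

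The transcription factors of the pathway differed among themselves. Stat2, the ISGF3 subunit that activates transcription, was at 3.92, 4.65, 4.56 and 4.50 FPKM across wild type replicates 1 to 4 and at 3.83, 3.93, 4.63 and 4.29 FPKM under the Cavb3 KO label. The labels overlapped in both sets (log2 differences -0.11 and -0.02). Irf9, the DNA-binding subunit of ISGF3, was at 3.55, 3.83, 4.10 and 3.74 FPKM in wild type and at 2.75, 2.99, 3.91 and 3.73 FPKM under the Cavb3 KO label. Its labels separated in replicates 1 and 2 (-0.28 ± 0.10 SE, limma adjusted p = 0.336) and overlapped in replicates 3 and 4 (-0.03).

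Irf1 (chromosome 11, 53770014 to 53778374, plus strand, GENCODE M21), a factor strongly induced by interferon-γ, was the member whose genotype difference changed most between the sets. It was at 14.3, 10.7, 9.01 and 10.4 FPKM in wild type and at 8.01, 9.46, 15.5 and 11.2 FPKM under the Cavb3 KO label. Both Cavb3 KO libraries were below wild type in replicates 1 and 2 and above it in replicates 3 and 4, with log2 differences of -0.46 ± 0.19 and 0.41 ± 0.19 (SE). The change between the sets was 0.87 ± 0.26 (limma adjusted p = 0.604), and over all 8 libraries the difference was -0.03. Irf7, which amplifies interferon production, was at 3.41, 2.92, 4.85 and 4.60 FPKM in wild type and at 3.27, 2.19, 4.54 and 6.09 FPKM under the Cavb3 KO label. Its labels overlapped in both sets, while every library of replicates 3 and 4 was above every library of replicates 1 and 2. The same held for 2004 of the 11864 genes tested.

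Of the cytoplasmic RNA sensors 3 were tested and 0 passed by genotype label. Ddx58 encodes RIG-I, which recognises RNA with a triphosphate end, and was the fifth most abundant member. It was at 21.6, 20.4, 16.2 and 16.7 FPKM across wild type replicates 1 to 4 and at 14.9, 16.6, 16.2 and 13.1 FPKM under the Cavb3 KO label. The 2 labels were apart in replicates 1 and 2 (-0.39 ± 0.11 SE, limma adjusted p = 0.255) and overlapped in replicates 3 and 4 (-0.16). Ifih1, encoding the long double-stranded RNA sensor MDA5, showed the same layout at 1.61 to 2.74 FPKM (-0.40 and -0.10). Eif2ak2, the kinase PKR that halts translation on binding double-stranded RNA, overlapped in replicates 1 and 2 and was lower without overlap in replicates 3 and 4 (-0.15 and -0.28). Dhx58, which encodes the related helicase LGP2, and Zbp1, a sensor of Z-form nucleic acid, were too low to test, at 0.250 to 0.429 and 0.0105 to 0.0765 FPKM.

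IFIT proteins bind foreign RNA and keep it from the ribosome, and their 3 genes did not share a direction. Ifit3 (chromosome 19, 34583531 to 34588731, plus strand, GENCODE M21) was at 3.24, 2.83, 1.89 and 1.88 FPKM across wild type replicates 1 to 4 and at 1.39, 2.03, 1.33 and 0.951 FPKM under the Cavb3 KO label. The labels were apart in both sets, and its log2 differences of -0.58 ± 0.15 and -0.44 ± 0.15 (SE) had limma adjusted p-values of 0.222 and 0.276. Ifit1, at 1.60, 1.87, 0.926 and 1.06 FPKM in wild type and 1.15, 1.10, 0.842 and 0.529 FPKM under the Cavb3 KO label, was also lower in both sets (-0.36 and -0.25). Ifit2, whose product is known to promote apoptosis, went the other way. It was at 2.64, 2.25, 1.68 and 1.90 FPKM in wild type and at 2.77, 3.48, 2.11 and 2.16 FPKM under the Cavb3 KO label, higher without overlap in both sets, yet 0.26 ± 0.13 and 0.17 ± 0.13 on the log2 scale (limma adjusted p = 0.489 and 0.591). It was the only member of the 38 that was higher without overlap in both sets. Of the 11864 genes tested, 2104 were higher without overlap in replicates 1 and 2 and 2129 in replicates 3 and 4. How many were so in both sets was not counted. The windows of Ifit1 and Ifit3 hold the ISRE-like pairs printed above, and the 2 windows of Ifit2 hold none.

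Among the oligoadenylate synthetases, which activate RNase L when they bind double-stranded RNA, Oas1a was the one expressed enough to test. It was at 2.57, 3.38, 2.09 and 1.76 FPKM in wild type and at 2.07, 1.88, 1.50 and 1.02 FPKM under the Cavb3 KO label. The labels did not overlap within either set, and the log2 differences were -0.41 ± 0.16 and -0.38 ± 0.16 (SE; limma adjusted p = 0.371 and 0.337). Oasl2, below the threshold at 0.321 to 0.874 FPKM, was lower without overlap in both sets as well.

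Isg15 (chromosome 4, 156199424 to 156200818, minus strand, GENCODE M21), a ubiquitin-like protein that is attached to many targets after interferon, was the single member whose labels separated over all 8 libraries. Wild type replicates 1 to 4 had 9.62, 10.2, 7.94 and 9.28 FPKM, and the libraries of the Cavb3 KO label 6.30, 7.35, 7.76 and 7.09 FPKM. The highest Cavb3 KO value, 7.76 FPKM, was just under the lowest wild type value, 7.94 FPKM. Wild type averaged 9.26 ± 0.950 FPKM and the Cavb3 KO label 7.13 ± 0.613 FPKM (SD over 4 libraries), or 0.770 times the wild type level, and the log2 difference of -0.33 ± 0.10 (SE) did not pass (limma adjusted p = 0.623). Within the sets it was -0.48 (limma adjusted p = 0.170) and -0.19 (adjusted p = 0.481). Only 126 to 198 reads per library were recovered on this short transcript. Usp18, the protease that removes Isg15 from its targets and dampens the interferon receptor, was lower in replicates 1 and 2 without overlap (-0.35 ± 0.09 SE, limma adjusted p = 0.215) and differed by 0.01 in replicates 3 and 4.

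The ubiquitin ligases of the list, Trim25, Rnf213 and Dtx3l, differed in how far the labels lay apart. Trim25, which attaches ubiquitin to RIG-I, was at 14.8, 14.9, 12.4 and 13.1 FPKM in wild type and at 12.5, 12.9, 11.5 and 7.67 FPKM under the Cavb3 KO label. Both sets were apart, and the value of Cavb3 KO replicate 4 lay well below the rest (-0.21 and -0.40). Without Cavb3 KO replicate 3 the Trim25 difference within replicates 3 and 4 was -0.66, resting on the lone Cavb3 KO library left in that set. Rnf213, a large ligase linked to moyamoya disease of brain arteries in humans, was at 9.03, 9.77, 5.12 and 7.02 FPKM in wild type and at 6.27, 7.95, 4.63 and 3.61 FPKM under the Cavb3 KO label. The labels were apart in each set (-0.37 ± 0.17 and -0.46 ± 0.17 SE; limma adjusted p = 0.470 and 0.292). Dtx3l, the partner of Parp9, was at 5.47, 5.69, 5.30 and 6.56 FPKM in wild type and at 5.53, 5.38, 6.36 and 6.29 FPKM under the Cavb3 KO label, overlapping in both sets (-0.03 and 0.09). Its exons share 458 bases with those of Parp9 on the opposite strand, and the sources used here do not say whether counting used strand.

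The PARP family members, which transfer or bind ADP-ribose, had small differences of opposite sign in the 2 sets. Parp9 was at 3.68 to 5.27 FPKM and Parp14 at 2.52 to 3.84 FPKM over the 8 libraries. Both were lower without overlap in replicates 1 and 2 (-0.19 and -0.25) and higher without overlap in replicates 3 and 4 (0.09 and 0.05). The gaps in replicates 3 and 4 were narrow, with Parp14 at 2.55 FPKM in both wild type replicate 3 and Cavb3 KO replicate 3, and Parp9 at 4.71 FPKM in wild type replicate 4 and 4.72 FPKM in Cavb3 KO replicate 4. With Irf1 this pattern was met by 3 of the 29 tested members, beside 2.17% of all genes tested. Neither change between the sets passed (0.29 and 0.30, limma adjusted p = 0.858 and 0.874).

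Of the membrane factors, Rtp4 and Bst2 had labels apart in replicates 1 and 2 and Ifitm2 did not. Rtp4, a chaperone of cell-surface receptors that also restricts flaviviruses, was at 3.29, 3.91, 2.34 and 2.39 FPKM in wild type and at 1.64, 1.87, 2.95 and 1.42 FPKM under the Cavb3 KO label. Its difference in replicates 1 and 2, -0.74 ± 0.22 SE, was the largest of the 29 in size (limma adjusted p = 0.276), whereas in replicates 3 and 4 the labels overlapped (-0.12). Bst2, or tetherin, which holds budding virions at the cell surface, was at 74.8, 87.3, 96.2 and 87.3 FPKM in wild type and at 54.2, 59.3, 90.9 and 79.6 FPKM under the Cavb3 KO label. It was lower without overlap in replicates 1 and 2 (-0.50 ± 0.11 SE), where its limma adjusted p of 0.159 was the smallest of the 29 members, and overlapped in replicates 3 and 4 (-0.11). Ifitm2 was at 60.5, 67.3, 166 and 127 FPKM in wild type and at 58.0, 64.6, 123 and 151 FPKM under the Cavb3 KO label. Its labels overlapped in both sets (-0.06 and -0.09), and those of Ifitm3 separated in replicates 1 and 2 and overlapped in replicates 3 and 4 (-0.18 and 0.09).

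Guanylate-binding proteins, GTPases that coat intracellular pathogens, were low throughout. Gbp2 was at 1.24 to 2.93 FPKM and lower under the Cavb3 KO label without overlap in both sets (-0.26 and -0.46, limma adjusted p = 0.579 and 0.272). Gbp3, at 0.808 to 2.22 FPKM, was lower without overlap in replicates 1 and 2 only (-0.34 and -0.26), and so was Gbp7.

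Of the other effectors, Adar, which edits adenosine in double-stranded RNA and so keeps cellular RNA from triggering sensors, varied little. It was at 8.75, 8.69, 7.92 and 8.97 FPKM in wild type and at 8.41, 8.33, 7.79 and 6.66 FPKM under the Cavb3 KO label, apart in each set by narrow margins (-0.05 and -0.20). Its exons overlap those of Chrnb2 on the opposite strand over 16.8% of their length. Samd9l, an inhibitor of translation and cell growth, was at 14.4, 13.2, 8.98 and 10.0 FPKM in wild type and at 11.8, 11.4, 9.91 and 8.82 FPKM under the Cavb3 KO label. Its labels were apart in replicates 1 and 2 (-0.23) and overlapped in replicates 3 and 4 (-0.02). Ifi27 was at 47.8, 49.8, 56.0 and 50.7 FPKM in wild type and at 33.0, 40.5, 52.3 and 49.9 FPKM under the Cavb3 KO label, with the 2 lowest values in Cavb3 KO replicates 1 and 2 (-0.41 ± 0.11 SE, limma adjusted p = 0.222) and an overlap in replicates 3 and 4 (-0.06). Ifi35, at 2.61 to 5.32 FPKM, had the smallest limma adjusted p of the members within replicates 3 and 4, 0.211 (-0.47 ± 0.13 SE). Rsad2, or viperin, which makes a chain-terminating ribonucleotide, was lower without overlap in replicates 1 and 2 (-0.44) and overlapped in replicates 3 and 4 (-0.05).

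Whether the genotype difference itself changed between the sets was tested as an interaction. No tested member passed (0 of 29, beside 0.00843% of all genes tested, 1 gene), and 3 had an unadjusted p under 0.05, namely Irf1, Bst2 and Usp18, beside 6.2% of all genes. The median of the 29 was 0.21, beside 0.00 for all genes tested, with 21 of 29 positive. Members with an ISRE-like match and without one were both mostly negative: within replicates 1 and 2, 14 of 14 tested members with a match had a lower mean under the Cavb3 KO label (median -0.38), and so did 9 of 10 without one (median -0.22). Within replicates 3 and 4 the counts were 13 of 14 (median -0.17) and 6 of 10 (median -0.02), and the difference between these classes was not tested. Of all genes tested, 56.1% were lower within replicates 1 and 2 and 53.9% within replicates 3 and 4.

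Between the replicate sets some members did change. Comparing replicates 3 and 4 with replicates 1 and 2 over both labels, limma called 11 of the 29 tested members, or 37.9%, beside 44.8% of all genes tested, so the share among the members was near the background, and leaving out 1 library gave 7 to 16 members. Ifitm2, Irf7, Bst2 and Ifi27 rose, beside 19.5% of all genes called higher, and Rnf213, Oas1a, Ifit3, Ifit1, Samd9l, Ifit2 and Ifi35 fell, beside 25.4% called lower. Ifitm2 rose most, 2.27-fold in mean FPKM (log2 difference 1.16 ± 0.11 SE, limma adjusted p = 0.00103), its 4 libraries of replicates 3 and 4 all exceeding those of replicates 1 and 2. Such a separation upward was met by 3 of the 29 tested members, beside 2004 of the 11864 genes tested. Downward it was met by 3 of the 29, beside 2708 genes (22.8%). Irf7 rose by 0.61 ± 0.12 (limma adjusted p = 0.00835) and Bst2 by 0.38 ± 0.08 (adjusted p = 0.00893). Rnf213 fell by 0.61 on the log2 scale (limma adjusted p = 0.00759) and Samd9l by 0.39 (adjusted p = 0.00497). These 5 genes kept the call whichever library was left out, while the other 6 lost it in 2 to 5 of the 8 such fits. All 3 IFIT genes fell in this comparison, Ifit2 included, by 0.35 to 0.41 on the log2 scale. The 7 pericyte and smooth muscle markers had a summed FPKM of 3.42 to 6.97 in replicates 3 and 4 against 8.77 to 24.7. Of the 2 that were tested, Acta2 fell by 2.74 on the log2 scale (limma adjusted p = 7.37e-04) and Pdgfrb differed by 0.05 (adjusted p = 0.857). Of the 10 endothelial markers 6 fell and Tie1 rose. The 4 choroid plexus and ependymal markers summed to 2.26 to 6.01 FPKM against 0.240 to 0.698, and Foxj1, a gene of ciliated cells, rose by 2.19 (limma adjusted p = 7.37e-04), as did the epithelial Epcam, by 1.50 (adjusted p = 0.00273). The part of these shifts in the members' changes was not tested. The labels name no batch, so the sets are known by replicate number only.

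**Figure D5:**
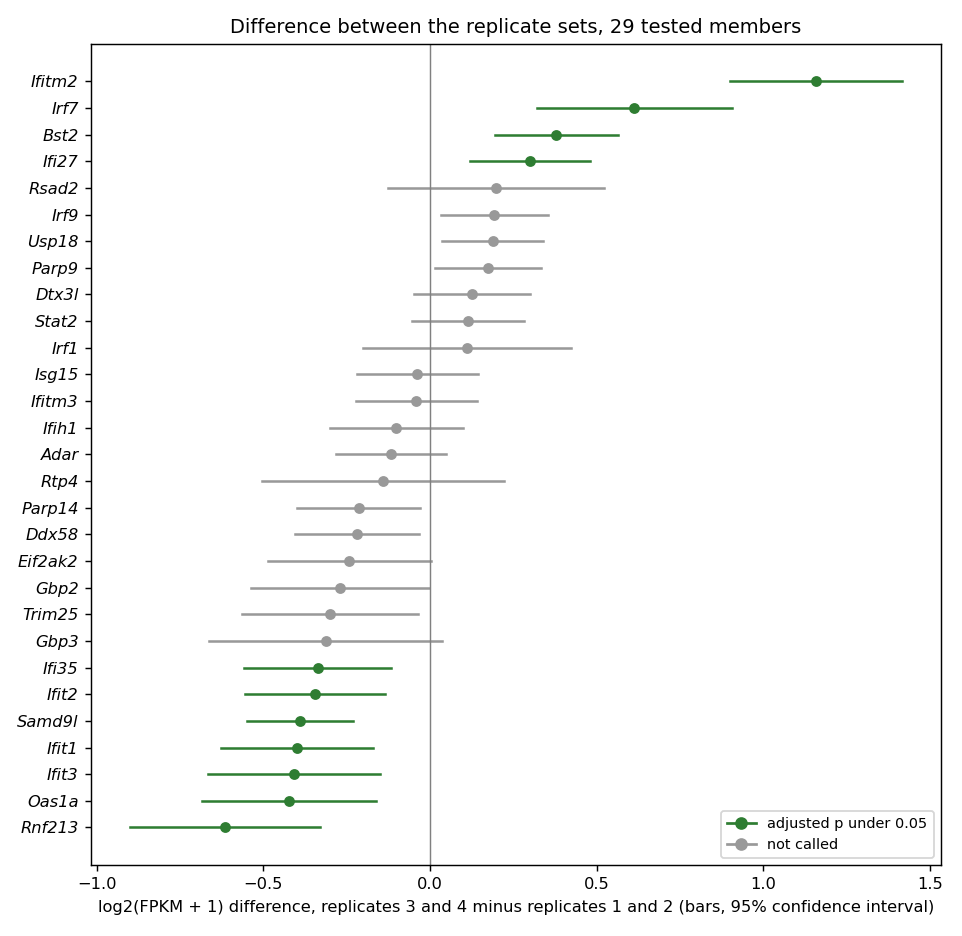
Log2(FPKM + 1) difference between replicates 3 and 4 and replicates 1 and 2, averaged over both labels, for the 29 tested members, with 95% confidence intervals from limma; green marks an adjusted p under 0.05. Ifitm2 is at the top at 1.16 and Rnf213 at the bottom at -0.61, with 4 genes called higher and 7 called lower.

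Upstream of these genes the ligands were nearly silent. Of 10 interferon genes, Ifna1, Ifna2, Ifna4, Ifng, Ifnl2 and Ifnl3 were listed at 0 in every library, and the highest single value of any was 0.397 FPKM, of Ifnb1 in Cavb3 KO replicate 4. The receptors were present: Ifnar1 was at 10.0 to 12.4 FPKM, Ifnar2 at 6.08 to 9.04, Ifngr1 at 8.36 to 12.4 and Ifngr2 at 8.28 to 15.9 FPKM. So were the kinases Jak1 (24.8 to 31.9 FPKM), Jak2 (11.7 to 19.0) and Tyk2 (2.25 to 3.40). By genotype label 0 of the 9 tested genes of this list passed, with medians of -0.17 within replicates 1 and 2 and -0.14 within replicates 3 and 4. Between the sets 2 of the 9 changed, beside the 44.8% of all genes tested: Jak1 rose by 0.21 (limma adjusted p = 0.0171) and Ifngr2 fell by 0.30 (adjusted p = 0.0442).

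Of 17 genes that sense nucleic acid or carry the signal to interferon genes, 11 were tested and 0 passed by genotype label. Between the replicate sets 1 rose, the adaptor Myd88, and 6 fell, namely Ticam1, Tlr3, Traf3, Mavs, Tbk1 and Irf3, beside 19.5% and 25.4% of all genes tested. The largest change was that of Ticam1, the adaptor of Tlr3, which fell by 0.71 on the log2 scale (limma adjusted p = 0.00202). Tlr3, the endosomal double-stranded RNA receptor, fell by 0.50 (limma adjusted p = 0.00205), and Traf3 by 0.54 (adjusted p = 0.00253).

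Of 15 negative regulators, a list that also holds the members Adar and Usp18, 13 were tested and 0 passed by genotype label. Socs1, which inhibits JAK kinases, was at 0.770, 1.06, 5.27 and 5.17 FPKM across wild type replicates 1 to 4 and at 2.53, 2.49, 4.06 and 5.53 FPKM under the Cavb3 KO label. The Cavb3 KO libraries were the higher ones in replicates 1 and 2 (0.88, limma adjusted p = 0.123) and overlapped with wild type in replicates 3 and 4 (-0.11). Between the sets Socs1 rose by 1.21 (limma adjusted p = 8.01e-04), Socs3 by 0.63 and Samhd1 by 0.40. Otud5 and Nlrc5 rose as well, and Irf2, a repressor at ISRE sites, fell, which makes 5 of 13 that rose and 1 that fell, beside 19.5% and 25.4% of all genes tested.

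A further 55 interferon-stimulated genes outside the 38 gave 33 tested genes, of which 0 passed by genotype label. Within replicates 1 and 2, 29 of these 33 were lower under the Cavb3 KO label (median -0.17), beside 56.1% of all genes tested. Within replicates 3 and 4, 23 were lower (median -0.10), beside 53.9%. Between the sets 7 rose and 9 fell, beside 19.5% and 25.4% of all genes tested. Ifitm1, a further gene of the Ifitm family, rose by 1.63 (limma adjusted p = 0.00143), from 4.39 to 8.14 FPKM in replicates 1 and 2 to 19.2 to 26.1 FPKM in replicates 3 and 4. Irgm1, an immunity-related GTPase, fell by 0.83 (limma adjusted p = 0.00138), and Ube2l6, the enzyme that conjugates Isg15, by 0.41 (adjusted p = 0.00375).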

How the data were processed

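Per the labels' protocols, RNA from 8 cultures was isolated with the RNeasy Mini Plus kit and sequenced after NEBNext Ultra library preparation. Reads were aligned with HISAT2 2.0.5, per the submitters' processing notes. The sources used here do not give the counter, build, annotation or strand setting. For each library the authors deposited 1 table of FPKM values over 54532 genes. Symbols were found for 54409 identifiers and GENCODE M21 (GRCm38) exon lengths for 54495. FPKM multiplied by length gave whole reads within a tolerance of 0.01 for 96.5% to 96.8% of values, hence the implied depths of 23491645 to 33813070; intervals and floors from such reads cover counting error only.

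Genes at 1 FPKM or more in at least 4 libraries (11864) were tested with limma 3.58.1 (R 4.3.3; trend, robust) on log2(FPKM + 1), a scale that understates the change of low genes. One fit held genotype alone and another the 4 combinations of label and replicate set, and p-values were adjusted over all genes tested. The members, lists and tests were chosen with earlier results of these data known. Values in every library are printed for up to 10 called members, the 6 highest, the 4 largest and 4 smallest differences within replicates 1 and 2, Stat2, Irf9, Irf7 and Irf1; the rest are given by range. Counts for the receptor list include a gene whose own values are not reported here. Promoters are from the RefSeq table. The limma fits were tested on simulated data. Tables were joined in Python 3.11.15 (pandas 2.3.3, numpy 2.4.6) and drawn with matplotlib 3.10.9.

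Deviations from the group mean correlated across genes between wild type and Cavb3 KO libraries of one number (0.41, 0.75, 0.40 and 0.52 for replicates 1 to 4). These values hold the difference between the replicate sets, since each mean covers all 4 replicates; within the sets the differences between 2 replicates correlated at 0.185 (replicates 1 and 2) and -0.345 (replicates 3 and 4) across the labels. All 4 values about the group mean exceed 0.1, the criterion for pairing by number, while the within-set value of replicates 3 and 4 does not. The main fits were not paired, and the replicate block was run as an alternative. The alternatives tried were the replicate block, the replicate set as a term, each set fitted alone, a pseudocount of 0.1, no filter, a filter at 5 FPKM, quantile normalization, median centring, limma without trend, limma-voom on recovered reads and leaving out each library.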

Additional observations from a re-analysis of the deposited data

Results flagged for a closer look

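Rsad2 in Cavb3 KO replicate 3 was at 1.62 FPKM, while the other 3 libraries of that label were at 0.621 to 0.746 FPKM. The gap to its nearest neighbour was 0.874 of the range of the 4 values. Of the 58 groups of 4 libraries examined this was the 1 that stood out. Chance alone gives about 1 in 20, so 1 of 58 is no more than chance would give. Each group of 4 pools the 2 replicate sets.

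The genotype difference of 3 members had opposite directions in the 2 replicate sets, without overlap in either. Among all genes tested 2.17% were likewise lower without overlap in replicates 1 and 2 and higher without overlap in replicates 3 and 4. In replicates 3 and 4 the gaps of Parp14 (2.55 FPKM in both labels of replicate 3) and Parp9 (4.71 against 4.72 FPKM in replicate 4) were narrow. For Irf1 the difference within replicates 3 and 4 exceeded that within replicates 1 and 2 by 0.87 on the log2 scale, for Parp14 by 0.30 and for Parp9 by 0.29. In the interaction test of limma none of the 3 passed, with adjusted p-values of 0.604, 0.874 and 0.858.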

How the results depend on the processing

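By genotype label 0 members were called in each of the 3 comparisons and in the interaction under every alternative run, with the exception of Trim25 without Cavb3 KO replicate 3 (0 to 1 members within replicates 3 and 4). In that fit the lone Cavb3 KO library left in replicates 3 and 4 was taken to vary like the others. Counts over all genes moved more, in that fit as well (below). Over all 8 libraries 75 genes were called with the replicate set as a term (0 without it) and 0 with the replicate block, and none of the 75 was a member. Within replicates 1 and 2 (6 genes) the count was 0 with no filter, 0 when the set was fitted alone, 2 without trend, 12 with quantile normalization, 15 with the filter at 5 FPKM and 39 with limma-voom. Within replicates 3 and 4 (6 genes) it was 29 with no filter and 1 without trend. With the replicate block these counts were 0 within replicates 1 and 2 and 1 within replicates 3 and 4, and no call of a member changed. The interaction called 2 genes with a pseudocount of 0.1 and 2 with limma-voom (1 otherwise). Leaving out 1 library gave 0 to 10 genes within replicates 1 and 2, 1 to 418 within replicates 3 and 4 (418 without Cavb3 KO replicate 3), 1 to 58 in the interaction (58 without wild type replicate 2) and 3444 to 5921 between the sets. Between the sets the filter at 5 FPKM called 3522 genes and 5 members, fewer of both being testable, and no filter called 6 members, with 7 to 16 when 1 library was left out. The set comparison has no blocked fit, since each number lies in 1 set.

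Signs turned for these small differences. With quantile normalization Irf1 over all 8 libraries was at 0.0082, Ifitm3 at 0.0030 and -0.027 within the 2 sets, Samd9l at 0.024 and Stat2 at 0.018 within replicates 3 and 4, and Isg15 between the sets at 0.0042. With median centring Irf1 was at 0.0019, Irf9 at 0.0073, Samd9l at 0.018 and Stat2 at 0.017 within replicates 3 and 4, and Ifitm3 at 0.0020 and Isg15 at 0.0052 between the sets. With limma-voom Irf1 over all 8 libraries was at 0.018, Adar at 0.020, Dtx3l at 0.048 and Ifitm2 at 0.026 within replicates 1 and 2, and Irf9 at 0.00055, Samd9l at 0.020 and Stat2 at 0.016 within replicates 3 and 4. With 1 library left out the range was -0.19 to 0.099 for Irf1 over all 8 libraries and -0.027 to 0.32 for Ifit3 in the interaction. Within replicates 1 and 2 it was -0.13 to 0.017 for Ifitm2 and -0.38 to 0.039 for Irf7. Within replicates 3 and 4 it was -0.046 to 0.22 for Dtx3l, -0.13 to 0.011 for Ifi27, -0.21 to 0.020 for Ifih1, -0.28 to 0.10 for Ifitm2, -0.0077 to 0.18 for Ifitm3, -0.049 to 0.31 for Irf7, -0.082 to 0.025 for Irf9, -0.34 to 0.24 for Rsad2, -0.48 to 0.23 for Rtp4, -0.094 to 0.058 for Samd9l and -0.064 to 0.027 for Stat2. Between the sets it was -0.089 to 0.0063 for Ifitm3, -0.088 to 0.012 for Isg15 and -0.32 to 0.035 for Rtp4. The causes were not tested. Low members such as Ifit1 (33 to 124 reads) and Ifit3 (39 to 154 reads) carry more counting error than Ifitm3 (22936 to 31330 reads).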
